A study of Mus musculus with 18 samples.

Results

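The replication-dependent histone genes encode the bulk of the linker histone H1 and of the core histones H2A, H2B, H3 and H4. They were taken here as every protein-coding mouse gene of the count table whose GENCODE M39 symbol is H1f1 to H1f5 or begins with H2ac, H2bc, H3c or H4c followed by a number. The rule found 67 of 55414 genes, with 5 H1, 18 H2A, 19 H2B, 12 H3 and 13 H4 genes. On GRCm39, 53 of them lay on chromosome 13, 10 on chromosome 3, 3 on chromosome 11 and 1 on chromosome 6.

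The counts came from Neuro-2a cells, a mouse neuroblastoma line, harvested 72 h after transfection of an siRNA, and total RNA was depleted of rRNA before library construction. Each of 6 siRNAs gave 3 libraries, 18 in all. They were a pair of negative control siRNAs (Scramble KD A and B), a pair against Fmr1, which encodes FMRP, an RNA-binding protein that associates with ribosomes (Fmr1 KD A and B), and a pair against Zfp598, which encodes a ubiquitin ligase that recognises collided ribosomes (Zfp598 KD A and B). All groups share the same untreated parent line and the transfection, so no group represents cells without siRNA, and the letters A and B only name independent siRNAs. The study carried out the knockdown with each siRNA in triplicate, so the p-values measure the spread between knockdowns in the same parent line. The study set out to ask which mRNAs accumulate when FMRP or ZFP598 is lost.

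Histone mRNAs of this class are made mainly in S phase, when new nucleosomes are assembled on replicated DNA. Most metazoan mRNAs end in a poly(A) tail, but these end just after a conserved stem-loop, which is bound by SLBP (stem-loop binding protein), and cleavage there requires the U7 snRNP with its subunits Lsm10 and Lsm11. At the end of S phase the mRNAs are degraded rapidly from this end, through oligouridylation and the helicase UPF1. Since the libraries were made by rRNA depletion, mRNAs without poly(A) could be counted.

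The stem-loop was found within 250 bases after the stop codon in 62 of 67 histone genes (92.5%) and in 73 of 21656 protein-coding genes (0.337%), the histone genes included. The sequence began 22 to 59 bases after the stop codon, with a median of 32. The form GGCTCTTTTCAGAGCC occurred in 39 genes of the H1, H2A, H2B and H3 families, and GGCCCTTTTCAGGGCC in 8 H4 genes. The sites of 6 genes whose values are given below show how little the element varies between families. The capitals mark the stem and its loop, and positions are on GRCm39.
H1f2, chr13:23923490-23923515, plus strand: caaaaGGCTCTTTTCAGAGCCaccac
H1f4, chr13:23805760-23805785, minus strand: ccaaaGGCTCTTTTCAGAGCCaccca
H2ac15, chr13:21937547-21937572, minus strand: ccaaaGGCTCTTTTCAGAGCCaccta
H2bc8, chr13:23756012-23756037, plus strand: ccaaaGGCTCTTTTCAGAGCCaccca
H3c2, chr13:23936798-23936823, plus strand: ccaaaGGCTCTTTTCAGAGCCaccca
H4c12, chr13:21934315-21934340, minus strand: caaaaGGCCCTTTTCAGGGCCaccca
No such sequence was found for H2ac22, H2bc21, H2bc22, H2bc23 and H2bc24. H2bc21, on chr3:96128435-96131054 of the plus strand and annotated as 1 exon of 2620 bases, is known to give a polyadenylated mRNA in non-dividing cells, olfactory neurons among them.

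The levels of the histone genes spanned a wide range. In units of CPM (counts scaled to a common library size by TMM) per kb of exon, H3c11 reached 316, H3c10 256, H4c12 236, H4c18 170, H1f5 165 and H2ac15 159, and the lowest level among the tested genes was 1.57 in H2bc9. By summed CPM, the H4 genes held 35% of the counts of all 67 genes, H1 24.2%, H3 23.9%, H2B 8.64% and H2A 8.28%. Of the 67 genes, 55 passed the filter on low counts (5 H1, 14 H2A, 15 H2B, 10 H3 and 11 H4). Another 6 were at 0 counts in every library (H2ac1, H2ac18, H2ac19, H2bc18, H3c13 and H3c14). All of these overlap an exon of another annotated gene and 5 lie on chromosome 3 (H3c14 shares 1825 bases with Gm20634 on the same strand), and the part of such overlaps in the 0 counts was not tested. The other 6 had counts below the filter (H4c17, H4c2, H2ac24, H2bc23, H2bc1 and H2bc24).

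Histone genes of a family are near copies, which limits the values of single genes. Of all windows of 100 bases along its exons, a gene had none that is unique in the genome in 5 cases and fewer than 50% in 24 cases, these 5 included, while 20 genes had over 90%. H3c10 had 8.01% unique windows, H4c18 10.9%, H2ac13 11.6%, H3c11 31.4% and H3c2 43.4%, against 97.0% in H1f4 and 100% in H2bc21. How reads that align to several places were counted, and whether strand was used, is not given in the sources used here. The exons of 33 genes overlapped those of another gene, 9 of them on the same strand. H1f4 was among these 9, with 320 bases shared with Gm11398 and 528 with H2bc6, so its counts and those of H2bc6 could be split between them.

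The libraries held 7674724 to 15414590 counts, of which 18894 to 38759 (0.163 to 0.277%) fell on the 67 genes. The exact binomial 95% interval of that share, which covers counting error only, was at most 0.00351 percentage points to either side. The siRNAs lowered their targets, with Fmr1 at 51.2 to 68.6 CPM in Scramble KD, 15.7 to 22.0 in Fmr1 KD A and 25.2 to 27.4 in Fmr1 KD B, and Zfp598 at 103 to 128 CPM in Scramble KD, 32.0 to 48.5 in Zfp598 KD A and 40.1 to 43.5 in Zfp598 KD B. A single feature without an entry in GENCODE M39 took 5.00 to 25.8% of the counts of a library, with 5.67, 15.2 and 25.8% in the 3 libraries of Zfp598 KD A. Of 11 tested neuroblastoma markers, 0 rose and 8 fell with Fmr1 KD A (median -0.60), 5 and 0 with Fmr1 KD B, 2 and 2 with Zfp598 KD A, 6 and 2 with Zfp598 KD B, and 1 was higher and 6 lower in Scramble KD B than A, and their part in the results was not tested. Summed pluripotency markers were at 40.1 CPM in Fmr1 KD B library 1 and at 3.16 to 8.61 CPM in the other libraries.

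Summed over the 67 genes, histone mRNA stood at 2007 ± 353 CPM (SD, n = 3) in Scramble KD A, 2210 ± 246 in Scramble KD B, 1830 ± 298 in Fmr1 KD A, 2396 ± 247 in Fmr1 KD B, 2835 ± 692 in Zfp598 KD A and 1764 ± 223 in Zfp598 KD B. The summed level was thus highest with one Zfp598 siRNA and lowest with the other. In bulk RNA, fewer cells in S phase and less histone mRNA per cell cannot be told apart. The family sums differed in their order across groups. H2B was at 138 to 162 CPM in Scramble KD A, 163 to 175 in Fmr1 KD A and 116 to 175 in Zfp598 KD A, against 189 to 251 in Scramble KD B, 234 to 249 in Fmr1 KD B and 167 to 200 in Zfp598 KD B. For each target the B siRNA gave the higher mean of H2B, with ranges that overlapped only for Zfp598 KD. H4, in contrast, lay between 576 and 866 CPM in the 12 libraries of Scramble KD and Fmr1 KD, at 710 to 1137 in Zfp598 KD A and at 535 to 717 in Zfp598 KD B.

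**Figure D1:**
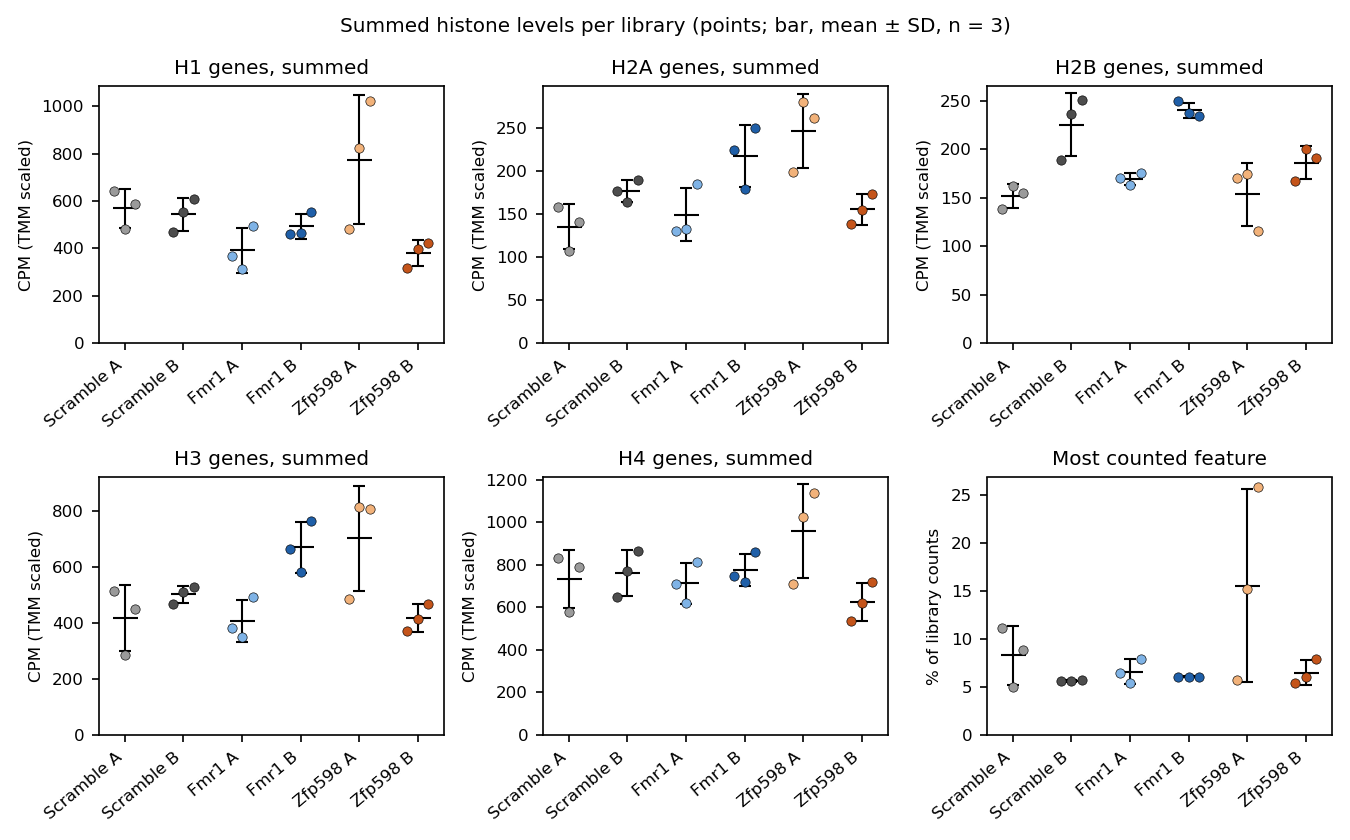
Summed CPM (linear axis, from 0) of the H1, H2A, H2B, H3 and H4 genes in each of the 18 libraries, by siRNA group, with the group mean and its SD (n = 3). H2B lies higher with the B siRNA than with the A siRNA of Scramble KD and Fmr1 KD without overlap, and Zfp598 KD A has the widest spread in H1, H3 and H4.

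Across the 6 siRNA groups, 42 of the 55 tested histone genes differed (76.4%), with edgeR's quasi-likelihood F test and a Benjamini-Hochberg adjusted p below 0.05. Among all genes tested this share was 60.5%. The differing genes were 4 of 5 H1, 9 of 14 H2A, 13 of 15 H2B, 9 of 10 H3 and 7 of 11 H4. Leaving out each library in turn gave 40 to 50 genes, and 35 of the 42 were called in each of these 18 fits. The smallest adjusted p-values belonged to H2bc21 (adjusted p = 4.78e-09), H1f4 (adjusted p = 7.96e-07) and H2ac10 (adjusted p = 8.91e-06).

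**Figure D2:**
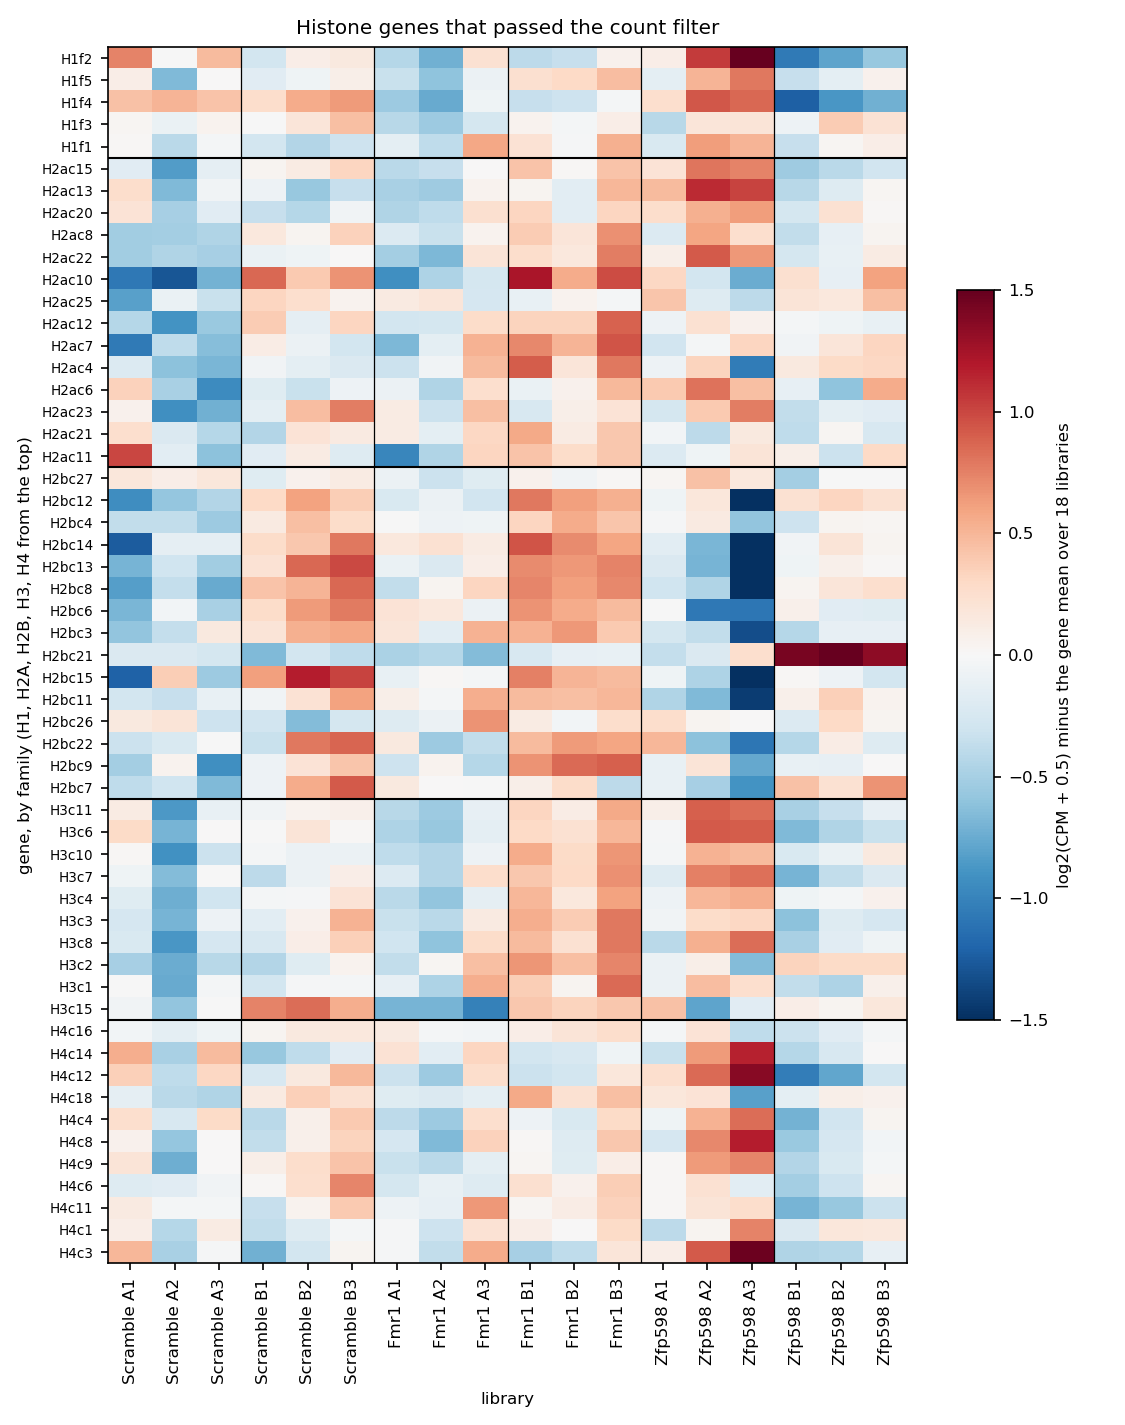
Log2 CPM of the tested histone genes (rows, grouped by family) in the 18 libraries (columns, grouped by siRNA), each gene relative to its mean over all libraries, with the colour limited to 1.5 in either direction. Most H2B rows are higher in the B than in the A columns of each target, and most H1, H3 and H4 rows are above their mean in libraries 2 and 3 of Zfp598 KD A, with H4c16, H4c18, H3c2 and H3c15 among the exceptions in library 3.

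Few histone genes were called with knockdown of Fmr1. With both siRNAs of each condition pooled, 6 libraries against 6, 1 of 55 was called (1.82%), against 6.54% of all genes (2.73% higher and 3.8% lower), and the median log2 fold change was 0.17 for the histone genes and near 0 for all genes. Of the 55, 44 lay above 0, against 9012 of 17901 among all genes. Between the negative controls, Scramble B minus A, 43 of 55 lay above 0 with a larger median, 0.40. The histone median of single libraries had a pooled SD within groups of 0.17 on the log2 scale. The called gene was H3c2, which encodes a replication-dependent H3. H3c2 stood at 8.29, 6.89 and 8.79 CPM in Scramble KD A, 8.68, 10.4 and 12.3 in Scramble KD B, 9.08, 12.1 and 16.4 in Fmr1 KD A and 19.1, 16.4 and 20.1 in Fmr1 KD B. All libraries of Fmr1 KD B lay above all of Scramble KD, whereas those of Fmr1 KD A overlapped with Scramble KD B. The log2 fold change was 0.75 ± 0.19 (SE), adjusted p = 0.0236 (edgeR). It missed the threshold without Fmr1 KD B library 1 (0.68, adjusted p = 0.0551), Fmr1 KD B library 3 (0.66, adjusted p = 0.056), Scramble KD A library 2 (0.68, adjusted p = 0.0538) or Scramble KD B library 1 (0.73, adjusted p = 0.0533). In the first 3 of these fits 0 histone genes passed. Without Fmr1 KD A library 1 or Zfp598 KD A library 3 the number was 3, and without Fmr1 KD A library 2 or Zfp598 KD B library 1 it was 2. The DESeq2 test called 3 (5.45%, against 9.92% of all genes). H3c2 was not particular to Fmr1 KD in all comparisons. Against the mean of both Scramble groups, an alternative chosen after seeing the data, it was also called higher with Zfp598 KD B. Against Scramble KD B alone it was not called with Zfp598 KD B.

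Against the Scramble siRNA of the same letter, H3c2 and H2bc8 rose and H1f4 fell with Fmr1 KD A, and H3c2, H3c10, H2ac4 and H2ac7 rose and H1f4 fell with Fmr1 KD B. That is 3 of 55 (5.45%) and 5 of 55 (9.09%), against 22% (9.35% higher and 12.7% lower) and 21.4% (11% higher and 10.4% lower) of all genes. H1f4, which encodes a linker histone, stood at 138, 146 and 137 CPM in Scramble KD A and 122, 149.8 and 159 in Scramble KD B. It fell to 69.4, 60.0 and 97.2 in Fmr1 KD A and 80.1, 82.3 and 99.4 in Fmr1 KD B. None of these 6 libraries reached the lowest Scramble value. The log2 fold change of H1f4 was -0.89 ± 0.17 (SE), adjusted p = 0.000722 for siRNA A and -0.72 ± 0.17 (SE), adjusted p = 0.00452 for siRNA B, and both were called in each of 18 fits without 1 library. In the pooled comparison, where the difference between siRNAs counts as spread, the value was -0.80 ± 0.28 (SE), adjusted p = 0.0885. Against the mean of both Scramble groups, an alternative chosen after seeing the data, H1f4 remained called at -0.91 and -0.70.

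The other linker histone genes did not pass for Fmr1 KD. H1f2 was at 257, 153 and 213 CPM in Scramble KD A, 127, 165 and 169.6 in Scramble KD B, 114, 92.5 and 179.6 in Fmr1 KD A and 116, 120.5 and 160.3 in Fmr1 KD B. Its groups overlapped, and the log2 fold change was -0.69 ± 0.28 (SE), adjusted p = 0.0915 for siRNA A and -0.22 ± 0.28 (SE), adjusted p = 0.647 for siRNA B. H1f3 gave -0.40 and -0.18, H1f5 -0.18 and 0.38, and H1f1 0.21 and 0.62 on the log2 scale.

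Among the core histone genes that passed with 1 siRNA, H2bc8 gave 0.68 ± 0.23 (SE), adjusted p = 0.037 for Fmr1 KD A and 0.08 ± 0.21 (SE), adjusted p = 0.833 for Fmr1 KD B. H2bc8 stood at 6.44, 9.14 and 6.81 CPM in Scramble KD A, 9.01, 12.1 and 14.9 in Fmr1 KD A, 16.1, 17.1 and 21.9 in Scramble KD B and 20.0, 18.4 and 19.7 in Fmr1 KD B. The A groups overlapped at 1 library, and the B groups overlapped too. Against the mean of both Scramble groups the change of H2bc8 with siRNA A was 0.03 on the log2 scale and did not pass. H2ac7 gave 0.88 ± 0.25 (SE), adjusted p = 0.0157 and H3c10 0.58 ± 0.18 (SE), adjusted p = 0.0209 for Fmr1 KD B.

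The counts for single Fmr1 siRNAs depended on the comparator and on libraries of other groups, which enter through the shared spread. For siRNA A the number was 3 in the fit reported and 6 without Scramble KD A library 2, 9 without Zfp598 KD A library 1 or 3, and 5 without Zfp598 KD B library 1. For siRNA B it was 5, with 3 without Fmr1 KD B library 1 and 2 without Fmr1 KD B library 3. It was 3, 2 and 3 without Scramble KD B library 1, 2 and 3, and 8 without Zfp598 KD A library 1. In the order given, the fits without 1 library called 20.3, 25.7, 24.5 and 20.3% of all genes for siRNA A. For siRNA B they called 16.3, 16.2, 15.5, 15.8, 16.5 and 26% of all genes. Against the mean of both Scramble groups, siRNA A gave 4 (1 higher and 3 lower, against 27.6% of all genes) and siRNA B 21 (20 higher and 1 lower, against 19.3%). The difference between the changes of the siRNAs passed for 0 histone genes with edgeR, against 20.5% of all genes (11.6% positive and 8.86% negative), with 5 at an unadjusted p below 0.05, and for 0 with DESeq2. That number was 6 without Scramble KD A library 2, 2 without Zfp598 KD A library 1, and 1 without Scramble KD A library 1, Scramble KD B library 1 or Zfp598 KD A library 3.

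With Zfp598 knockdown, the histone genes called were higher with siRNA A and, for all but H2bc21, lower with siRNA B. With both pooled, only H2bc21 was called, 1 of 55 (1.82%) against 1.96% of all genes (0.916% higher and 1.04% lower), and the median of the histone genes was 0.16 on the log2 scale. With Zfp598 KD A, 12 of 55 were called (21.8%), all higher, against 11% of all genes (5.6% higher and 5.43% lower), and the median was 0.42. With Zfp598 KD B, 12 of 55 were called (21.8%), 1 higher and 11 lower, against 25.2% of all genes (12% higher and 13.2% lower), and the median was -0.31. The median over all genes was near 0 in each of these fits. The Fmr1 and Zfp598 comparisons share their Scramble KD libraries.

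**Figure D3:**
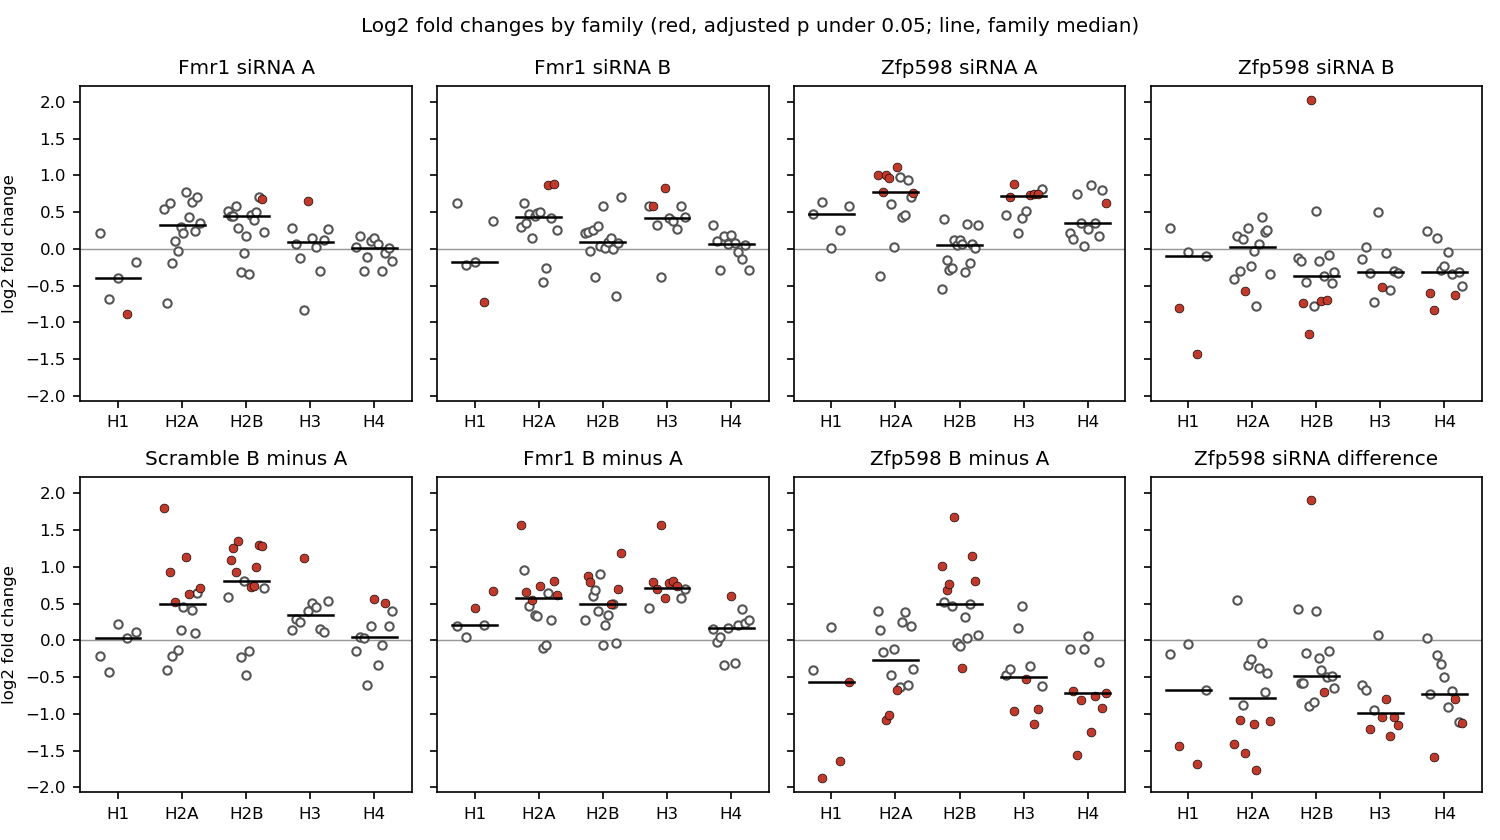
Log2 fold change (vertical axis) of each tested histone gene by family in 8 comparisons, with called genes in red and the median of each family as a line. The H3 and H2A genes lie mostly above 0 with Zfp598 siRNA A, and most H2B, H3 and H4 genes lie below 0 with Zfp598 siRNA B.

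The genes higher with Zfp598 KD A were H2A and H3 genes and 1 H4 gene. They were H2ac8, H2ac10, H2ac12, H2ac13, H2ac15 and H2ac22, then H3c4, H3c6, H3c7, H3c10 and H3c11, and H4c9, with log2 fold changes from 0.62 in H4c9 to 1.11 in H2ac22. The family medians were 0.77 for H2A, 0.72 for H3, 0.47 for H1, 0.35 for H4 and 0.05 for H2B. H2ac15, the most abundant H2A gene here, stood at 53.2, 33.1 and 54.1 CPM in Scramble KD A and 68.8, 104 and 100.3 in Zfp598 KD A. These groups did not overlap, and the log2 fold change was 0.96 ± 0.18 (SE), adjusted p = 0.00139. H3c11, an abundant H3 gene, rose from 135, 67.7 and 115 to 131, 230.4 and 222 CPM, 0.88 ± 0.21 (SE), adjusted p = 0.00919. Here library 1 of Zfp598 KD A lay within the range of Scramble KD A, as it did in H3c6, H3c7, H3c10 and H4c9.

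Of the 12 genes, 4 were called in each of 18 fits without 1 library (H2ac13, H2ac15, H2ac22 and H3c4). Without Zfp598 KD A library 1 the number of calls was 26 (47.3%, against 23.7% of all genes). It was 4 without Zfp598 KD A library 2 (7.27% against 5.2%) and 6 without Scramble KD A library 2 (10.9% against 5.84%). Without both libraries 2 and 3 of Zfp598 KD A, where the unnamed feature took its largest shares, it was 3, against 4.39% of all genes, and 1 of the 12 was among the 3 (H2ac10). That fit leaves 1 library of Zfp598 KD A, assumed to vary like the other groups, so the drop cannot be told apart from the loss of replicates. With the 2 groups fitted alone it was 0, against 0.681% of all genes, with 21 histone genes at an unadjusted p below 0.05. Against the mean of both Scramble groups it was 20, with 15 higher and 5 lower, of which 8 were shared with the 12, against 16.7% of all genes.

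With Zfp598 KD B the lowered genes came from all families, with H1f2 and H1f4, H2ac15, H2bc3, H2bc6, H2bc13 and H2bc15, H3c3, and H4c6, H4c11 and H4c12. H1f4 stood at 43.3, 55.5 and 61.7 CPM, below every library of the other groups except the lowest of Fmr1 KD A (60.0 CPM), and its log2 fold change was -1.43 ± 0.18 (SE), adjusted p = 6e-06. In Zfp598 KD A the gene was at 121, 195 and 185 CPM, on both sides of the Scramble KD values, with 0.25 ± 0.17 (SE), adjusted p = 0.387. H1f2 was at 73.0, 88.3 and 103 CPM in Zfp598 KD B, below all libraries of Scramble KD, and gave -0.80 ± 0.29 (SE), adjusted p = 0.0452. In Zfp598 KD A, H1f2 ranged from 164 to 493 CPM, the widest spread of the 6 groups on the linear scale. H4c12, one of the most abundant H4 genes per kb, stood at 57.0, 74.7 and 94.7 CPM in Scramble KD B and 32.6, 39.2 and 55.7 in Zfp598 KD B, without overlap, and gave -0.83 ± 0.27 (SE), adjusted p = 0.0279.

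Of the 12 genes called with Zfp598 KD B, H1f4 and H2bc21 were called in each fit without 1 library. The number was 4 without Scramble KD B library 2 or 3, against 18.5 and 18.9% of all genes. It was 5 without Zfp598 KD B library 1 or 2 (18.1% of all genes each) and 19 without Zfp598 KD A library 1 (29.1%). Against the mean of both Scramble groups it was 7 (2 higher and 5 lower, against 28.2% of all genes) and the median of the histone genes was -0.04.

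H2bc21, which lacks the stem-loop within the window searched, was the 1 histone gene called higher with Zfp598 KD B. It stood at 4.58, 4.57 and 4.40 CPM in Scramble KD A, 3.22, 4.35 and 4.02 in Scramble KD B, 4.11, 4.58 and 6.54 in Zfp598 KD A and 15.3, 17.3 and 14.4 in Zfp598 KD B. The libraries of Zfp598 KD B held 169 to 217 counts of H2bc21, and every other library of the series 37 to 72. The log2 fold change was 2.02 ± 0.16 (SE), adjusted p = 3.6e-08 for siRNA B and 0.12 ± 0.18 (SE), adjusted p = 0.824 for siRNA A. The pooled log2 fold change was 1.32 ± 0.29 (SE), adjusted p = 0.0213. It was not called without any one of Scramble KD B library 1 or 3 or Zfp598 KD B library 1, 2 or 3.

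The difference between the changes with the Zfp598 siRNAs was tested as an interaction in the model of 6 groups. It passed for 19 of 55 histone genes (34.5%), against 20.4% of all genes (9.77% positive and 10.6% negative), with 18 more negative for siRNA B and H2bc21 more positive (1.90 ± 0.25 (SE), adjusted p = 1.31e-05). The 18 were 2 H1, 6 H2A, 1 H2B, 6 H3 and 3 H4 genes, and the family medians were -0.67, -0.79, -0.48, -0.99 and -0.73. The difference was -1.68 ± 0.25 (SE), adjusted p = 5.26e-05 for H1f4, -1.54 ± 0.25 (SE), adjusted p = 0.000154 for H2ac15 and -1.58 ± 0.38 (SE), adjusted p = 0.00498 for H4c12. Of the 19, 12 were called in each fit without 1 library, and the number was 13 to 26. With library 1 as the single library of Zfp598 KD A it was 12, of which 6 were shared with the 19, against 16.4% of all genes.

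**Figure D4:**
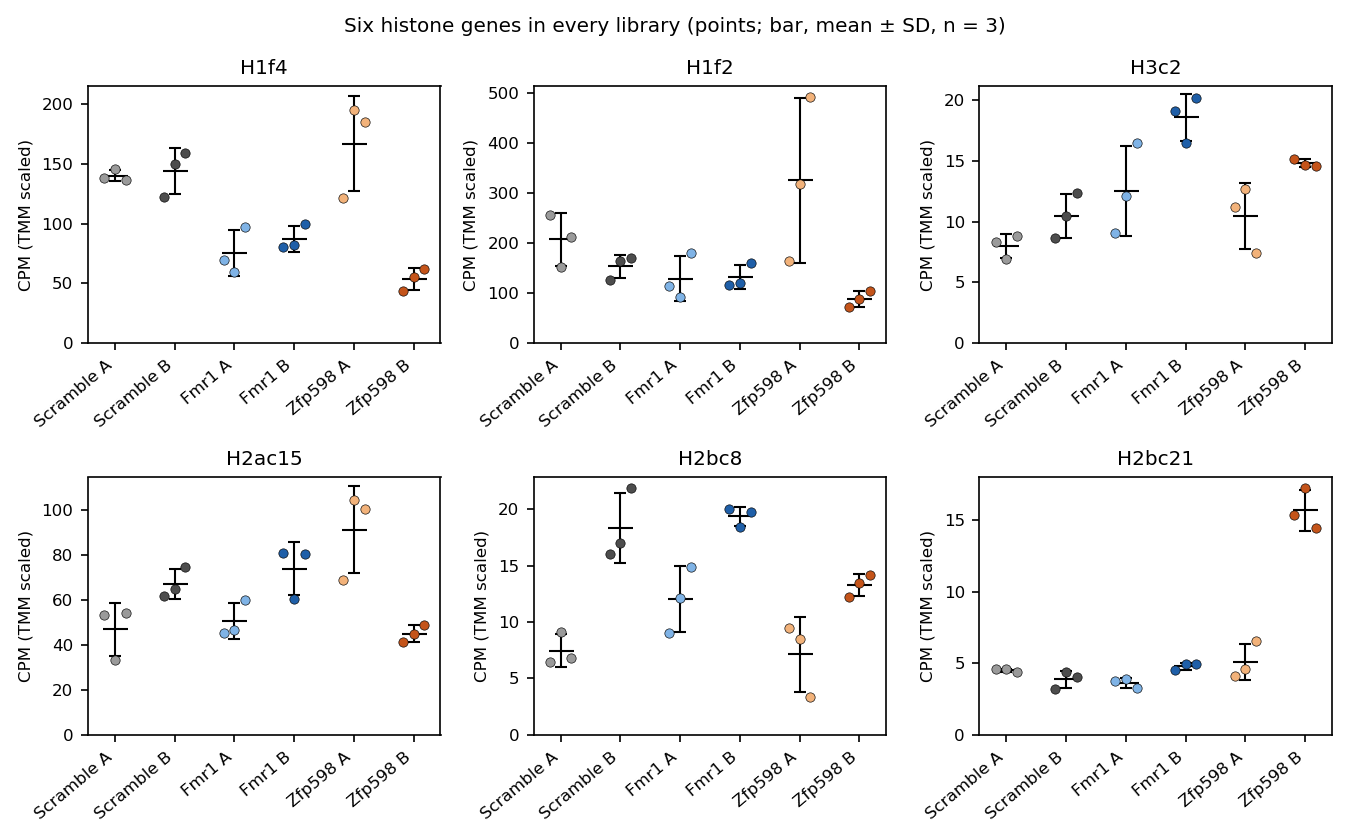
CPM (linear axes, from 0) of H1f4, H1f2, H3c2, H2ac15, H2bc8 and H2bc21 in each of the 18 libraries by siRNA group, with the group mean and SD (n = 3). H1f4 is lowest in Zfp598 KD B and low in both Fmr1 groups, and H2bc21 lies between 14.4 and 17.3 CPM in Zfp598 KD B and at most at 6.54 CPM elsewhere.

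Direct comparison of the siRNAs of one target, B minus A, gave 18 to 24 called histone genes, against 1 to 12 in the knockdown comparisons. For the Scramble siRNAs, which have no intended target, 18 of 55 were called (32.7%), all higher with B, against 21.1% of all genes (9.48% higher and 11.6% lower). They were 9 H2B, 6 H2A, 2 H4 and 1 H3 genes. The family medians were 0.80 for H2B, 0.49 for H2A, 0.34 for H3, 0.04 for H4 and 0.04 for H1. For the Fmr1 siRNAs, 21 were called (38.2%), all higher with B, against 23% of all genes (12.6% higher and 10.4% lower), with 7 H3, 6 H2A, 5 H2B, 2 H1 and 1 H4 genes. For the Zfp598 siRNAs, 24 were called (43.6%), 6 higher and 18 lower with B, against 33.3% of all genes (15.2% higher and 18.1% lower). The 6 higher genes were all H2B (H2bc7, H2bc8, H2bc11, H2bc13, H2bc14 and H2bc21), and the 18 lower ones were 7 H4, 4 H3, 3 H1, 3 H2A and 1 H2B.

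H2bc8 shows the H2B pattern. The values given above were at most 9.14 CPM in Scramble KD A and at least 16.1 in Scramble KD B, and it stood at 9.49, 8.53 and 3.36 CPM in Zfp598 KD A and 12.2, 13.5 and 14.2 in Zfp598 KD B. The B libraries lay above the A libraries for all 3 targets, and B minus A was 1.29 ± 0.22 (SE), adjusted p = 0.000247 in Scramble KD, 0.69 ± 0.21 (SE), adjusted p = 0.021 in Fmr1 KD and 0.81 ± 0.24 (SE), adjusted p = 0.0123 in Zfp598 KD. H2bc12 gave 1.09, 0.87 and 0.51 (adjusted p = 0.00137, 0.00514 and 0.0888). Among the H2A genes, H2ac10 was at 3.0, 2.52 and 3.97 CPM in Scramble KD A and 12.8, 9.14 and 11.2 in Scramble KD B, 3.39, 4.82 and 5.63 in Fmr1 KD A and 16.6, 10.3 and 14.0 in Fmr1 KD B. Neither pair of groups overlapped, and B minus A was 1.80 ± 0.27 (SE), adjusted p = 6.43e-05 in Scramble KD and 1.57 ± 0.26 (SE), adjusted p = 0.000111 in Fmr1 KD. In Zfp598 KD, H2ac10 overlapped between siRNAs, at 8.59, 5.54 and 3.89 and 8.15, 6.21 and 10.7 CPM, and B minus A was 0.40 ± 0.27 (SE), adjusted p = 0.273.

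Among the genes lower with Zfp598 KD B than with A, H1f2 gave -1.88 ± 0.29 (SE), adjusted p = 6.89e-05, H1f4 -1.64 ± 0.18 (SE), adjusted p = 1.37e-06, and H4c12 -1.56 ± 0.27 (SE), adjusted p = 0.000216. In Scramble KD, B minus A was not called for these genes, with -0.43 in H1f2, 0.04 in H1f4 and 0.02 in H4c12.

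Abundant genes of one family did not all pass the same comparisons. H2bc27, the H2B gene with the most counts, stood at 64.5, 61.8 and 64.9 CPM in Scramble KD A and 50.6, 60.1 and 62.5 in Scramble KD B, and B minus A was -0.14 ± 0.12 (SE), adjusted p = 0.456, with overlapping groups. In Zfp598 KD, H2bc27 was lower with B, at 58.7, 77.9 and 64.4 CPM with A and 40.2, 57.1 and 57.1 with B (-0.38 ± 0.13 (SE), adjusted p = 0.0248). H2bc27 was the 1 H2B gene called in that direction. H2bc4, another abundant H2B gene, gave 0.73 ± 0.15 (SE), adjusted p = 0.000993 in Scramble KD, 0.50 ± 0.14 (SE), adjusted p = 0.0142 in Fmr1 KD and 0.03 ± 0.15 (SE), adjusted p = 0.919 in Zfp598 KD.

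Among the H3 genes, H3c15 gave the largest B minus A value called for Fmr1 KD. H3c15 stood at 0.95, 0.95 and 0.67 CPM in Fmr1 KD A and 2.62, 2.46 and 2.61 in Fmr1 KD B, against 1.76, 1.06 and 1.84 in Scramble KD A and 3.42, 3.70 and 2.94 in Scramble KD B. The gene was low in both A groups and high in both B groups without overlap, and B minus A was 1.57 ± 0.33 (SE), adjusted p = 0.00124 in Fmr1 KD and 1.11 ± 0.30 (SE), adjusted p = 0.01 in Scramble KD. H3c6 gave 0.74 ± 0.21 (SE), adjusted p = 0.014 in Fmr1 KD, 0.16 without a call in Scramble KD, and -1.14 ± 0.21 (SE), adjusted p = 0.000397 in Zfp598 KD. H3c7 gave 0.57, 0.11 and -0.94 in the same order, and of these 3 values only the last was called.

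Of the most abundant H4 genes, H4c16 was not called in any comparison. It stood at 179, 167 and 177 CPM in Scramble KD A, 190.0, 205 and 206 in Scramble KD B, 181, 213 and 142 in Zfp598 KD A and 148, 164 and 182 in Zfp598 KD B, and its log2 fold changes lay between -0.32 for the Zfp598 siRNA difference and 0.20 for Scramble B minus A. H4c14 was lower with Zfp598 KD B than A (-0.81 ± 0.26 (SE), adjusted p = 0.0231), a value that was 0.064 with the share of the unnamed feature as a covariate. H4c18 was higher with B in Scramble KD (0.57 ± 0.17 (SE), adjusted p = 0.0184) and in Fmr1 KD (0.61 ± 0.17 (SE), adjusted p = 0.0102), with 0.06 in Zfp598 KD.

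Of the linker histone genes, H1f5 was higher with B in Fmr1 KD (0.67 ± 0.19 (SE), adjusted p = 0.0154) and lower with B in Zfp598 KD (-0.56 ± 0.20 (SE), adjusted p = 0.031). H1f5 stood at 107, 169 and 205 CPM in Zfp598 KD A and 93.3, 107 and 124 in Zfp598 KD B. The lowest library of Zfp598 KD A was the one in which the unnamed feature was at 5.67%, and the Zfp598 value of H1f5 was 0.0049 with the share of that feature as a covariate. H1f3 was higher with B in Fmr1 KD (0.45 ± 0.14 (SE), adjusted p = 0.0288). H1f1, with the fewest counts of the 5, was called in none of the comparisons.

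The counts for B minus A moved with single libraries. For Fmr1 KD, B minus A gave 10, 9 and 10 genes without Fmr1 KD A library 1, Fmr1 KD A library 2 and Fmr1 KD B library 3. B minus A thus called 18.2, 16.4 and 18.2% of the histone genes, near the 16.2, 17.8 and 18.4% of all genes. For Zfp598 KD it gave 15, 15 and 14 without Zfp598 KD A library 2, Zfp598 KD A library 3 and Zfp598 KD B library 1, and 4 (2 higher and 2 lower) against the single library of Zfp598 KD A left without libraries 2 and 3, where the share of all genes also dropped, to 13.1%. The Zfp598 fits that gave 15, 15 and 14 called 27.3, 27.3 and 25.5% of the histone genes, against 24.2, 25.5 and 23.3% of all genes. For Scramble KD the number was 12 to 23 over the 18 fits. Called in each fit without 1 library were 10 genes for Scramble KD, 8 for Fmr1 KD, and 13 for Zfp598 KD (3 higher and 10 lower). The comparisons share groups with the knockdown comparisons above, so Scramble KD A and B enter both.

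The octamer ATTTGCAT, the binding sequence of the POU factors Oct-1 and Oct-2, was looked for on both strands of RefSeq promoters (GRCm38.p6, 250 bases before to 50 after the start), which matched 57 of the 67 genes. It was present in 7 of 14 H2B and 6 of 17 H2A promoters, in none of the H1, H3 and H4 promoters, and in 532 of 27025 promoters of all genes (1.97%). Some H2A and H2B promoters overlap and share a site, which was counted for both genes. These pairs were H2ac1 and H2bc1, H2ac8 and H2bc8, and H2ac12 and H2bc12. The octamer and its neighbours are shown for 3 H2B genes, with the octamer in capitals and the window of the promoter on GRCm38.p6.
H2bc8, chr13:23571150-23571449, plus strand: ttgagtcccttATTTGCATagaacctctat
H2bc12, chr13:22035571-22035870, plus strand: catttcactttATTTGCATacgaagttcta
H2bc14, chr13:21721794-21722093, plus strand: ctctcgtctctATTTGCATaacagcgtgta
Of the tested H2B genes with a promoter, 5 of 5 with the octamer were called higher in Scramble KD B than A (log2 fold change 0.72 to 1.29) and 3 of 6 without it (0.58 to 1.36 over the 6). In Fmr1 KD the counts were 2 of 5 and 2 of 6, and in Zfp598 KD 2 of 5 and 3 of 6. CCAAT was present in 49 of 57 histone promoters, with 3 of 11 H4 promoters, against 41.1% of all promoters, and TATAA in 45 of 57 against 28%.

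Markers of the cell cycle differed between siRNAs of one target as well. The summed CPM of 34 tested S phase genes was 1047 in Scramble KD A and 1836 in Scramble KD B, 1176 and 1684 in Fmr1 KD A and B, and 1352 and 1636 in Zfp598 KD A and B. Of the 34, B minus A called 29 higher and 0 lower in Scramble KD, 25 and 1 in Fmr1 KD, and 17 and 5 in Zfp598 KD. Of 16 tested genes of G2 and M phase, B minus A called all 16 higher for Scramble and for Fmr1, and 4 higher and 3 lower for Zfp598. Against Scramble KD of the same letter, the S phase genes called were 14 higher and 1 lower with Zfp598 KD A (median 0.41), 1 and 10 with Zfp598 KD B (-0.25), 8 and 2 with Fmr1 KD A, and 1 and 6 with Fmr1 KD B. The genes of G2 and M phase called were 9 higher and 0 lower with Zfp598 KD A, 0 and 8 with Zfp598 KD B, 1 and 9 with Fmr1 KD A, and 0 and 6 with Fmr1 KD B, so that with Fmr1 KD A most of those called fell while most S phase genes called rose. Their part in the values of the histone genes was not tested.

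The share of the unnamed most counted feature moved with the histone genes within groups. As deviations from the group mean over the 18 libraries, the summed log2 CPM of the histone genes and the log2 share of the feature gave Pearson's r = 0.877 (permutation within groups, p = 7e-05, adjusted over 6 relations 0.00022) and Spearman's rho = 0.936 (p = 5e-05). Without the points of the 2 libraries farthest from the median on the share axis, Zfp598 KD A libraries 1 and 3, r was 0.85. The group means behind the deviations still held these 2 libraries, so their weight was not fully removed. By family, with the same permutation test, r was 0.89 for H1 (p = 0.00011), 0.863 for H3 (p = 0.00067), 0.861 for H4 (p = 9e-05) and 0.709 for H2A (p = 0.0062), and -0.5 for H2B (p = 0.429). Without the same 2 points, and with the same group means, r was 0.758 for H1, 0.92 for H3, 0.842 for H4, 0.804 for H2A and -0.0054 for H2B. The library with the largest share was that with the highest histone sum in 6 of 6 groups. It was library 3 in every group but Scramble KD A, where it was library 1. The groups may therefore not be independent in this, and a part of the replicate number was not tested. Of the 55 genes, 26 had r over 0.5 with the share, namely 5 of 5 H1, 6 of 14 H2A, 0 of 15 H2B, 8 of 10 H3 and 7 of 11 H4, and 20 lay below 0, 13 of them H2B. Both quantities are parts of the same libraries.

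**Figure D5:**
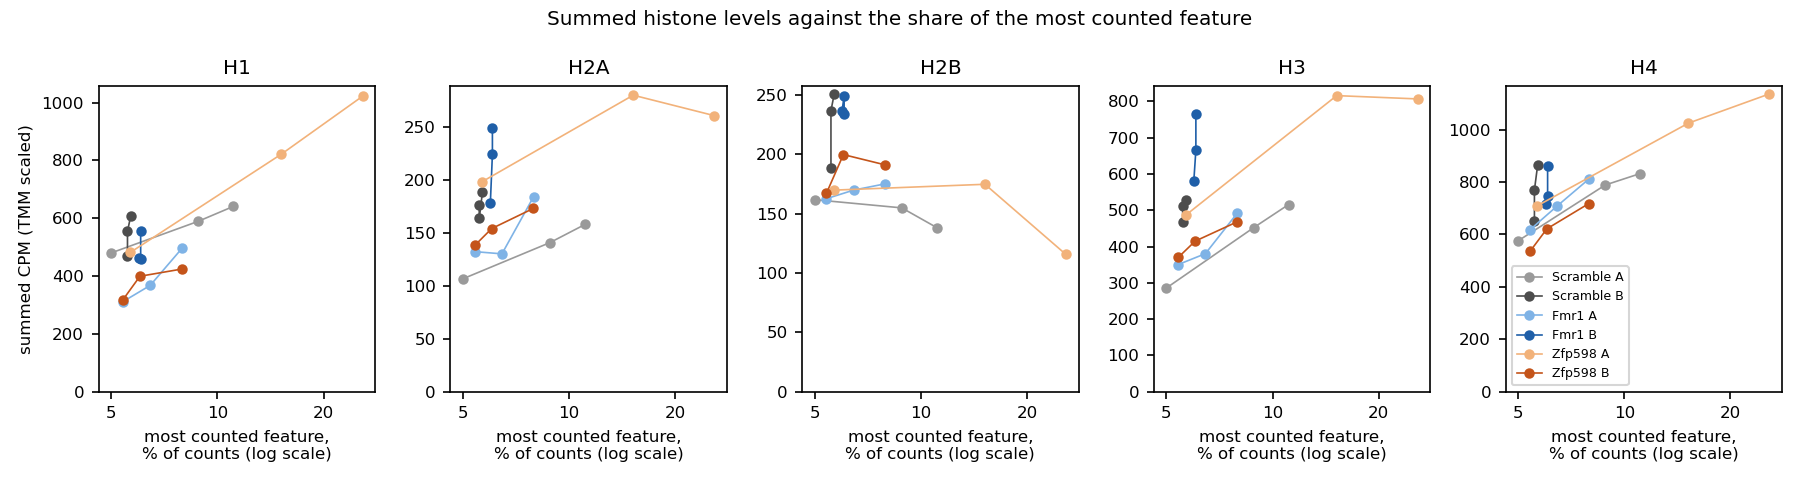
Summed CPM (vertical axis, linear, from 0) of the H1, H2A, H2B, H3 and H4 genes, in separate panels, for the 18 libraries. The horizontal axis is the share of the most counted feature in percent of library counts (log scale), and lines join the libraries of a group. The library with the largest share had the highest sum in 6 groups for H1 and H4, 5 for H2A and H3, and 2 for H2B. Zfp598 KD A library 3 lies farthest to the right, at 25.8%.

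With the share as a covariate in the model of 6 groups, an alternative chosen after seeing the data, the share itself was called for 31 of 55 histone genes (56.4%; 26 upward and 5 downward), against 33.4% of all genes. The histone genes called in this fit numbered 31 for Scramble B minus A (56.4%, all higher, against 26.9% of all genes) and 35 for Fmr1 B minus A (63.6%, 34 higher, against 34%). For Zfp598 they numbered 11 for B minus A (20%, 4 higher and 7 lower, against 26.9%) and 25 for KD B (45.5%, 2 higher and 23 lower, against 36.4%). H1f4 remained lower in Fmr1 KD A (-0.83), Fmr1 KD B (-0.75) and Zfp598 KD B (-1.49), and H2bc21 higher in Zfp598 KD B (2.0). The cause of the relation was not tested.

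Genes that process histone mRNA or act at the end of its life were listed apart from the histone genes. Slbp, which binds the stem-loop, was higher with B than A in Scramble KD (0.48 ± 0.10 (SE), adjusted p = 0.00107), in Fmr1 KD (0.29 ± 0.10 (SE), adjusted p = 0.0337) and in Zfp598 KD (0.50 ± 0.10 (SE), adjusted p = 0.000632), and was not called in a single-siRNA knockdown comparison. Npat, which activates histone transcription, was higher with Zfp598 B than A (0.90 ± 0.19 (SE), adjusted p = 0.000997). Lsm11, a subunit of the U7 snRNP, fell with Fmr1 KD A (-0.72 ± 0.15 (SE), adjusted p = 0.00108) and with Fmr1 KD B (-0.57 ± 0.14 (SE), adjusted p = 0.00618) and rose with Zfp598 KD A (0.73 ± 0.15 (SE), adjusted p = 0.00249). Of the 16 tested processing genes, 4 rose and 1 fell with Fmr1 KD A (31.2%, against 22% of all genes), 1 and 2 with Fmr1 KD B (18.8% against 21.4%), 3 and 0 with Zfp598 KD A (18.8% against 11%), and 2 and 2 with Zfp598 KD B (25% against 25.2%).

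Of 11 tested genes of histone mRNA decay, Dcp2, the catalytic subunit of the decapping enzyme, fell in all 4 single-siRNA comparisons, with log2 fold changes of -0.62 and -0.34 with Fmr1 KD A and B and -0.51 and -0.26 with Zfp598 KD A and B. Upf1, the helicase of the decay step, rose with Zfp598 KD B (0.58 ± 0.09 (SE), adjusted p = 0.000107). The list counted 2 higher and 1 lower with Fmr1 KD A (27.3%), 0 and 3 with Fmr1 KD B (27.3%), 0 and 1 with Zfp598 KD A (9.09%), and 2 and 3 with Zfp598 KD B (45.5%), against the same 22%, 21.4%, 11% and 25.2% of all genes. Of 14 tested histone chaperones, which escort new histones to DNA, 5 rose and 1 fell with Fmr1 KD A (42.9%), 0 and 3 with Fmr1 KD B (21.4%), 3 and 0 with Zfp598 KD A (21.4%), and 1 and 4 with Zfp598 KD B (35.7%). Of 11 tested genes for histone variants, 1 rose and 1 fell with Fmr1 KD A (18.2%), and 0 and 3 with Fmr1 KD B (27.3%). With Zfp598 KD A, 3 rose and 0 fell (27.3%), and with Zfp598 KD B, 4 rose and 1 fell (45.5%).

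Some histone genes are annotated well past the stem-loop, with transcripts that could carry poly(A). The annotated end lay over 100 bases past the stem-loop in 24 of 62 genes, by 9513 bases in H2bc4, 4879 in H1f3, 1148 in H1f4 and 835 in H1f2. Of the tested genes, 11 of 29 with a nearer end and 7 of 23 with a farther end were called higher in Scramble KD B than A, with medians of 0.51 and 0.20 on the log2 scale. With Zfp598 KD B, 6 of 29 and 5 of 23 were called lower. By mapping, genes with under 50% unique windows gave 8 of 17 and those with over 90% gave 3 of 18 calls in Scramble B minus A, and 6 of 17 and 0 of 18 in Zfp598 KD A. The genes that rose in Zfp598 KD A thus included none with over 90% unique windows. The highest shares among them were 89.5% in H2ac15, 85.8% in H3c4 and 84.9% in H4c9. Of all genes, 9.48% were called higher in Scramble KD B than A and 5.6% higher with Zfp598 KD A. With Zfp598 KD B, 13.2% of all genes were called lower.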

How the data were processed

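Per the submitters' processing notes and the study's methods, reads were trimmed with Trim Galore, aligned to GRCm39 with STAR and counted over exons with featureCounts. The deposited values are whole-number counts per gene, as the authors made them, not normalized and not pooled. Annotation release, strand setting and treatment of multiple alignments are not given in the sources used here. Symbols and coordinates came from GENCODE M39 (54749 of 55414 identifiers matched).

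Counts were analysed with edgeR 4.0.16 in R 4.3.3, which calls limma 3.58.1. DESeq2 1.42.0 served for comparison, and tables were made with Python 3.11.15. Genes were kept by filterByExpr (minimum count 10), leaving 19003 in the model of 6 siRNA groups and 17901 in the model of 3 conditions. CPM values and library sizes use TMM. The quasi-likelihood test was used with Benjamini-Hochberg adjustment over all genes tested, and a gene was called at an adjusted p below 0.05. The scripts were tested on simulated data. Of simulated 2-fold changes in either direction, 67 of 100 were called for Fmr1 KD B and 69 of 98 for pooled Fmr1 KD. The within-group relation to the most counted feature used 100000 two-sided permutations within groups.

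The members and lists, and the rule for the genes named, were chosen with earlier results of these data known. The genes named are all H1 genes, the 4 most abundant of each core family, the largest called rise and fall of each comparison, the siRNA targets, Slbp, Npat, and the genes of each list with the smallest p-values across groups. Other genes called in a comparison are named after their values were seen. Tried alternatives were no filter, RLE size factors, DESeq2, a replicate block, leaving out the most counted feature or each library, a letter term, fits of the compared groups alone, a 2-fold minimum, and 3 added after seeing the data: the share of the most counted feature as a covariate, leaving out 2 Zfp598 KD A libraries, and the mean of both Scramble groups as comparator.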

Additional observations from a re-analysis of the deposited data

Results flagged for a closer look

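In 105 tests of a value in a single library against the others of its condition (6 libraries each), 5 values in 3 libraries stood apart by Dixon's criterion, and chance marks about 1 in 20 groups. The level of H2bc27 was 50.6 CPM in Scramble KD B library 1, with the next library at 60.1. H2bc12 was at 6.01 CPM in Zfp598 KD A library 3, with the next at 17.5. In Scramble KD A library 2, H3c11 was at 67.7 CPM (next 115), H3c6 at 70.3 (next 114) and summed H3 at 286 (next 452), and in that library the most counted feature had its lowest share of the series, 5.00%.

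The change with Zfp598 siRNA B differed from that with siRNA A for 13 histone genes, of 58 such tests over the genes named and both targets, by the interaction in the model of 6 groups (edgeR, adjusted over all genes). The differences, B minus A, on the log2 scale were -1.44 for H1f2 (adjusted p = 0.0142), -1.68 for H1f4 (adjusted p = 5.26e-05), -1.54 for H2ac15 (adjusted p = 0.000154), -1.10 for H2ac8 (adjusted p = 0.00454), -1.41 for H2ac10 (adjusted p = 0.0124), -1.14 for H2ac22 (adjusted p = 0.0179) and -1.76 for H2ac23 (adjusted p = 0.025). They were -0.71 for H2bc4 (adjusted p = 0.0199), -1.21 for H3c11 (adjusted p = 0.00519), -1.30 for H3c6 (adjusted p = 0.00368), -1.05 for H3c7 (adjusted p = 0.0277) and -1.58 for H4c12 (adjusted p = 0.00498). H2bc21 alone was positive, at 1.90 (adjusted p = 1.31e-05). Each change was taken against the Scramble siRNA of the same letter, so the gap between the Scramble siRNAs enters these values. For H2ac10, Zfp598 B minus A was 0.40 without a call, and Scramble B minus A was 1.80.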

How the results depend on the processing

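The counts of called histone genes that moved by more than 1.5 times are given here against the reported ones, which were 1 for each pooled knockdown, 3 and 5 for Fmr1 KD A and B, 12 and 12 for Zfp598 KD A and B, 18, 21 and 24 for B minus A of Scramble, Fmr1 and Zfp598, and 0 and 19 for the Fmr1 and Zfp598 siRNA differences. Without a filter on low counts, the numbers were 11 and 16 for Fmr1 KD A and B, 22 for each Zfp598 siRNA and 6 for the Fmr1 difference. That fit tested 37275 genes, of which 10.8 and 11.7% were called for Fmr1 KD A and B. The shares were 6.54 and 12.5% for Zfp598 KD A and B, and 10.4% for the Fmr1 difference. DESeq2 gave 3 for pooled Fmr1 KD and 8 for Fmr1 KD A, against 9.92 and 23.3% of all genes. Without the most counted feature, Fmr1 KD A gave 5, against 21.9% of all genes. A term for the siRNA letter gave 3 for pooled Fmr1 KD, against 10.1%. With only the groups compared in the fit, the numbers were 8 and 20 for Fmr1 KD A and B and 0 and 26 for Zfp598 KD A and B. They were 32 for Fmr1 B minus A, 3 for pooled Fmr1 KD and 0 for pooled Zfp598 KD. Of all genes, these fits called 24.2 and 32.5% for Fmr1 KD A and B. For Zfp598 KD A and B the shares of all genes were 0.681 and 38.5%. They were 33.3% for Fmr1 B minus A, 10.2% for pooled Fmr1 KD and 0.696% for pooled Zfp598 KD. With a change over 2-fold required, the histone genes called numbered 0 for pooled Fmr1 KD and each Fmr1 siRNA. Under that rule they numbered 2 and 3 for Zfp598 KD A and B, and 8, 3 and 10 for B minus A of Scramble, Fmr1 and Zfp598. Of the 19003 genes tested, the rule gave 117 higher and 148 lower for Zfp598 KD A, and 529 and 452 for Zfp598 KD B. For B minus A it gave 268 higher and 394 lower in Scramble, 621 and 156 in Fmr1, and 657 and 787 in Zfp598. Size factors of the RLE method moved no count this far.

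Libraries of equal replicate number in different groups were compared by the correlation of their deviations from the group mean. Over 45 pairs it was -0.311 to 0.255, and 9 were over 0.1. The pairs of replicate 3 were all positive, at 0.0373 to 0.189. The labels do not say whether replicate numbers mark a batch. With a replicate block, Fmr1 KD A gave 8, Fmr1 KD B 8 and Zfp598 KD A 19 genes, and no other count moved by over 1.5 times. Of all genes, these fits called 23.1, 22.6 and 12.3%.

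With the share of the most counted feature as a covariate, the numbers were 5 and 2 for pooled Fmr1 and Zfp598 KD. They were 14 and 20 for Fmr1 KD A and B and 25 for Zfp598 KD B. For B minus A of Scramble, Fmr1 and Zfp598 they were 31, 35 and 11, and for the Fmr1 and Zfp598 differences 2 and 30. In the same order, the shares of all genes were 12.9, 6.38, 31.9, 33, 36.4, 26.9, 34, 26.9, 29.2 and 29.7%. The medians were -0.022 for pooled Zfp598 KD and -0.066 for Zfp598 B minus A. Without Zfp598 KD A libraries 2 and 3, which leaves that group 1 library assumed to vary like the others, the numbers were 4 and 3 for pooled Fmr1 and Zfp598 KD, 11 and 8 for Fmr1 KD A and B, 3 and 20 for Zfp598 KD A and B, 4 for Zfp598 B minus A, and 2 and 12 for the differences, and the medians were -0.10 for pooled Zfp598 KD and -0.057 for Zfp598 B minus A. Under these settings, Zfp598 B minus A reversed to 0.0049 and 0.0076 for H1f5 and to 0.064 and 0.116 for H4c14. Against the mean of both Scramble groups, Fmr1 KD B gave 21 with a median of 0.44, Zfp598 KD A 20, and Zfp598 KD B 7 with a median of -0.039. These 3 alternatives were chosen after seeing the data, and the cause of the moves was not tested.

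Leaving out each library gave 0 to 3 for pooled Fmr1 KD, 0 to 1 for pooled Zfp598 KD, 2 to 9 and 2 to 8 for Fmr1 KD A and B, 4 to 26 and 4 to 19 for Zfp598 KD A and B, 9 to 27 for Fmr1 B minus A, 14 to 34 for Zfp598 B minus A and 0 to 6 for the Fmr1 difference. The median was -0.049 to 0.25 for Fmr1 KD A and 0.029 to 0.35 for the Fmr1 difference, with -0.049 and 0.35 both without Fmr1 KD A library 3. For named histone genes and the siRNA targets, 2292 values under alternatives were checked, only for comparisons called in the reported fit. Of these, 2061 kept their direction and side of the threshold, 227 kept only their direction and 4 reversed. Values called only under an alternative were not counted, and the fits without 1 library share all other libraries with the reported fit. Genes with few unique windows, and those under the filter, limit what these counts can show.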
